A study of Sus scrofa with 12 samples.

Results

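Genes for the protein subunits of the mitochondrial ribosome were examined in the muscle of 12 pigs. The set was defined by name, as every measured gene with a symbol that starts with MRPL or MRPS followed by a digit. It held 40 genes of 20741 measured features, of which 28 were MRPL genes, named for the large subunit, and 12 were MRPS genes, named for the small subunit. The gene name table held 65 identifiers with such a symbol, and 25 of them were not analysed here because the count tables used have no row for them. Symbols were known for 10349 features in all.

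Drip loss measures how much fluid a cut of meat gives off during storage, so a high value marks poor water holding. The study compared muscle of 6 pigs labelled high drip with that of 6 pigs labelled low drip, and each group held 3 females and 3 males. The high drip animals were 167 to 186 days old and the low drip animals 172 to 189 days old. The labels name no muscle, breed, genotype or treatment, and each library is taken here as 1 animal. The p-values therefore measure the spread between these animals only.

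Mitochondria carry their own ribosomes, which descend from those of bacteria and translate the few messages of the mitochondrial genome. Those messages encode core membrane subunits of the respiratory chain and of ATP synthase. The ribosomal RNA is transcribed inside the organelle, whereas the protein subunits are encoded in the nucleus, made in the cytosol and imported. The large subunit holds the peptidyl transferase centre that joins amino acids, and the small subunit binds the message and decodes it. Some of the proteins have a counterpart in bacterial ribosomes and others were added in the mitochondrial lineage. The labels used here gave 25 measured genes a bacterial counterpart and called 15 specific to mitochondria, MRPL55 among the 15. The label of MRPL55 is in doubt, so the split is approximate.

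Libraries held 8009627 to 12622043 counts. For 3 females, numbered 1 and 2 in the low and 2 in the high drip group, the deposited table recorded for the animal carried another animal's number. Tables were assigned by the number in their name. Tables assigned this way shared 737 to 745 of 770 counts with the animal's own table of chromosomal regions, against 123, 136 and 136 for the recorded ones. Folds given below with tables as recorded thus use poorly matching tables for these 3 females. They show how far the assignment matters and do not measure the stability of a fold. Liver transcripts, defined by ALB (serum albumin) above 10 CPM (a gene's counts per 1000000 counts of the library), were present in 6 libraries, numbers 1 to 4 of the high drip group and numbers 5 and 6 of the low drip group. These included all 3 high drip females and 0 of 3 low drip females. Summed over 20 measured liver genes, these 6 libraries had 153 to 705 CPM and the remaining libraries 64.98 to 241 CPM. The 2 sides overlapped, so libraries called without liver transcripts are those low in ALB only. Genes typical of skeletal muscle were abundant in every library, with 124194 to 189073 CPM summed over 7 markers.

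All 40 genes were expressed in every animal and passed the filter on low counts. Levels are given in CPM, scaled between libraries by the trimmed mean of M-values (TMM). CPM is not corrected for gene length, so a higher CPM of a longer gene does not mean more transcripts, and levels are not ranked as abundances between genes. Mean raw counts per library ran from 44.6 for MRPL49 to 1116 for MRPL17. Together the 40 genes took 0.131% to 0.163% of the counts of a library.

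Among large subunit genes the 4 highest CPM values belonged to proteins of the conserved core. MRPL17, the counterpart of a bacterial protein near the exit of the peptide tunnel, had 110 ± 9.28 CPM (mean ± SD, n = 12). MRPL15 had 80.2 ± 6.28 CPM and MRPL24 had 76.5 ± 13.0 CPM, and MRPL18 had 74.9 ± 7.97 CPM. The spreads of MRPL15, MRPL24 and MRPL18 overlapped, so their order was not resolved. MRPL49, specific to mitochondria, and MRPL55 had the lowest values, with 4.43 ± 0.900 and 7.48 ± 0.930 CPM.

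Small subunit genes spanned a narrower range. MRPS26, a protein specific to mitochondria, had 58.8 ± 10.5 CPM, and MRPS9, which has a bacterial counterpart, had 55.0 ± 5.75 CPM. MRPS6 followed with 33.8 ± 8.15 CPM and MRPS18B with 32.2 ± 4.09 CPM. The difference between neighbours in each of these pairs was smaller than their SD. The lowest were MRPS18A with 6.37 ± 1.88 CPM and MRPS2 with 10.9 ± 3.08 CPM. MRPS18A and MRPS18B are paralogs that both derive from 1 bacterial protein. Structures of mammalian mitochondrial ribosomes place MRPS18A in the large subunit in spite of its name, and it is counted here by its symbol.

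**Figure D1:**
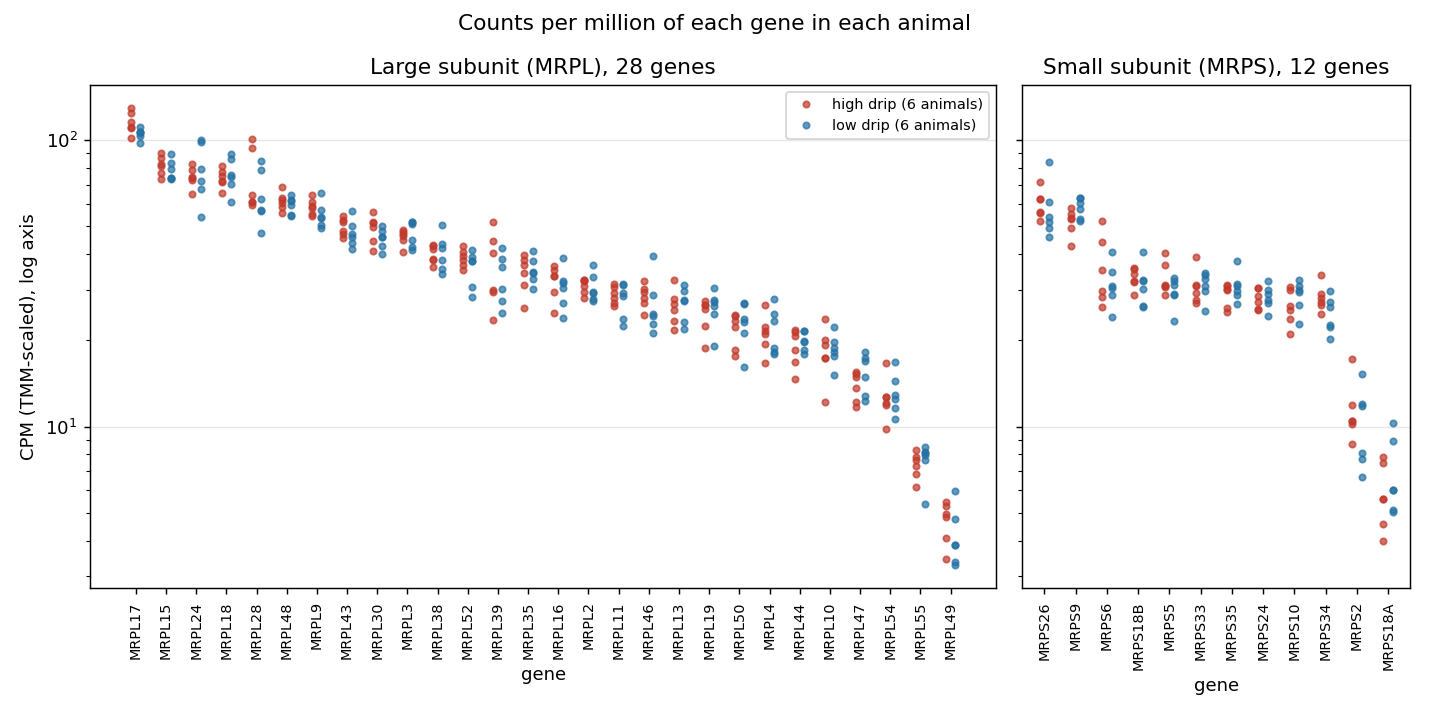
CPM of each gene (log axis) in each of the 12 animals, with large subunit genes on the left and small subunit genes on the right, in order of their mean. Each point is 1 animal, coloured by drip group. MRPL17 lies highest at 97.4 to 130 CPM and MRPL49 lowest at 3.27 to 5.98 CPM, and in every gene the points of both groups overlap.

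Variation between animals was described next. The coefficient of variation (SD over mean) had a median of 13.0% over the 40 genes, from 6.87% for MRPL48 to 29.6% for MRPS18A, where counting error alone gave a median of 5.65%. The highest animal exceeded the lowest by a median of 1.56-fold, and by more than 2-fold in 5 genes, MRPS2, MRPS18A, MRPL39, MRPS6 and MRPL28. The biological coefficient of variation of the fitted model, which excludes counting error, had a median of 14.9% over the set and 19.5% over all 10411 tested features. It lay below the value for all features in 34 of the 40 genes. The features were not matched to the set by their counts, whose part in this difference was not tested. The 37 nuclear genes of oxidative phosphorylation had a median of 14.3% and 22 genes of the cytosolic ribosome had 15.2%.

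MRPS2, the counterpart of a bacterial protein of the small subunit, ranged from 6.66 CPM in low drip replicate 1 to 17.2 CPM in high drip replicate 2. MRPS6 ranged from 24.2 CPM in low drip replicate 1 to 52.2 CPM in high drip replicate 4. MRPL28 ranged from 47.4 CPM in low drip replicate 1 to 101 CPM in high drip replicate 2. MRPS18A ranged from 3.99 CPM in high drip replicate 3 to 10.3 CPM in low drip replicate 3, and MRPL39 from 23.6 CPM in high drip replicate 1 to 51.9 CPM in high drip replicate 6. The lowest values of these 5 genes thus lay in 3 animals and the highest in 4. The highest animals of MRPS2, MRPS6 and MRPL28 had liver transcripts and those of MRPS18A and MRPL39 did not.

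The levels were also summed over the set. The 40 genes summed to 1481 ± 46.5 CPM over the 12 animals, a coefficient of variation of 3.14%, with 1387 CPM in low drip replicate 2 and 1553 CPM in high drip replicate 2 at the ends. The corresponding coefficient was 8.37% for the oxidative phosphorylation genes and 9.23% for the cytosolic ribosomal genes. With scaling by total counts in place of TMM it was 6.48% for the set, 7.06% for oxidative phosphorylation and 10.1% for the cytosolic ribosome, so most of the difference between the set and oxidative phosphorylation depended on the scaling. The libraries with liver transcripts had 1483 ± 40.8 CPM and those without had 1479 ± 55.6 CPM (n = 6 each), so the sums overlapped and their means lay within the SD.

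Drip groups were compared first by subunit. The large subunit genes summed to 1095, 1111 and 1170 CPM in high drip animals (lowest, median and highest of 6) and to 1042, 1092 and 1146 CPM in low drip animals. The small subunit genes summed to 353.8, 375 and 389 CPM at high drip, against 341, 368 and 414 CPM at low drip. The groups overlapped for each subunit, and the low drip sums spread more widely. The ratio of the large to the small sum was 3.01 ± 0.131 in high drip and 2.98 ± 0.175 in low drip animals (n = 6 each). It ranged from 2.70 in low drip replicate 4 to 3.24 in high drip replicate 6. The ratio sets 28 against 12 measured genes, so it does not give the proportion of the subunits.

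**Figure D2:**
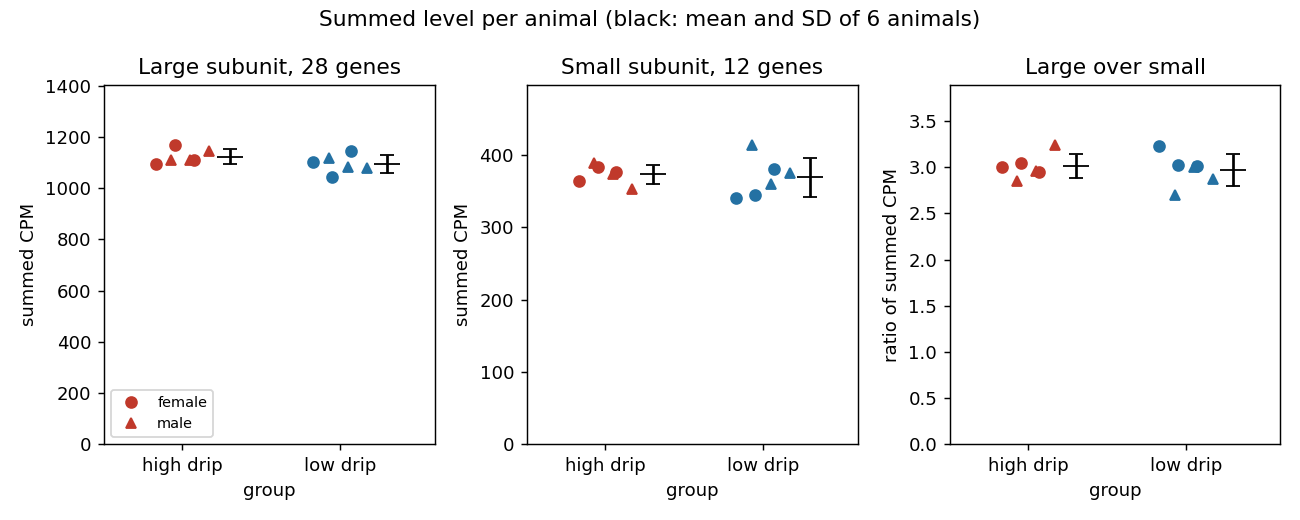
Summed CPM of the 28 large subunit genes, of the 12 small subunit genes, and their ratio, in each animal (circles females, triangles males) by drip group, with the mean and SD of 6 animals in black. High and low drip animals overlap in all panels, at 1095 to 1170 against 1042 to 1146 CPM for the large subunit.

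No gene of the mitochondrial ribosome passed the test between high and low drip pigs, and folds were small in both subunits. With edgeR's quasi-likelihood test with sex as a term, 0 of 40 genes passed an adjusted p of 0.05, where 0% of all 10411 tested features passed. The adjusted p was 0.999 for each of the 40 genes. Without adjustment, 0 of 40 had a p under 0.05, higher or lower, against 369 features or 3.54% of all tested (1.66% higher and 1.88% lower). DESeq2 and limma voom also called 0 features, with 355 and 361 at an unadjusted p under 0.05. A p that misses the threshold does not show that levels were equal, and in bulk muscle fewer cells of a type and less RNA per cell cannot be told apart.

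The fitted folds (log2, high minus low drip) were centred on 0. Of the 40 genes, 20 had a positive and 20 a negative fold, with a median of 0.00, as over all tested features. The range was -0.21 for MRPS18A to 0.19. The median size regardless of sign was 0.08, against 0.11 over all features. Large subunit genes split 14 to 14 with a median size of 0.07, and small subunit genes split 6 to 6 with a median size of 0.14. Genes labelled as having a bacterial counterpart had a median fold of -0.02 and those labelled specific to mitochondria, MRPL55 included, 0.05.

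The precision of the contrast can be read from its intervals. The 95% interval of the fold included 0 for every one of the 40 genes. It lay within 0.5 of 0 on the log2 scale for 34 of them and within 1 for all 40. The bound farthest from 0 was -0.69, for MRPS18A. In 0 of 40 genes did the values of the groups not overlap, where 0.106% of tested features had groups that did not overlap.

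**Figure D3:**
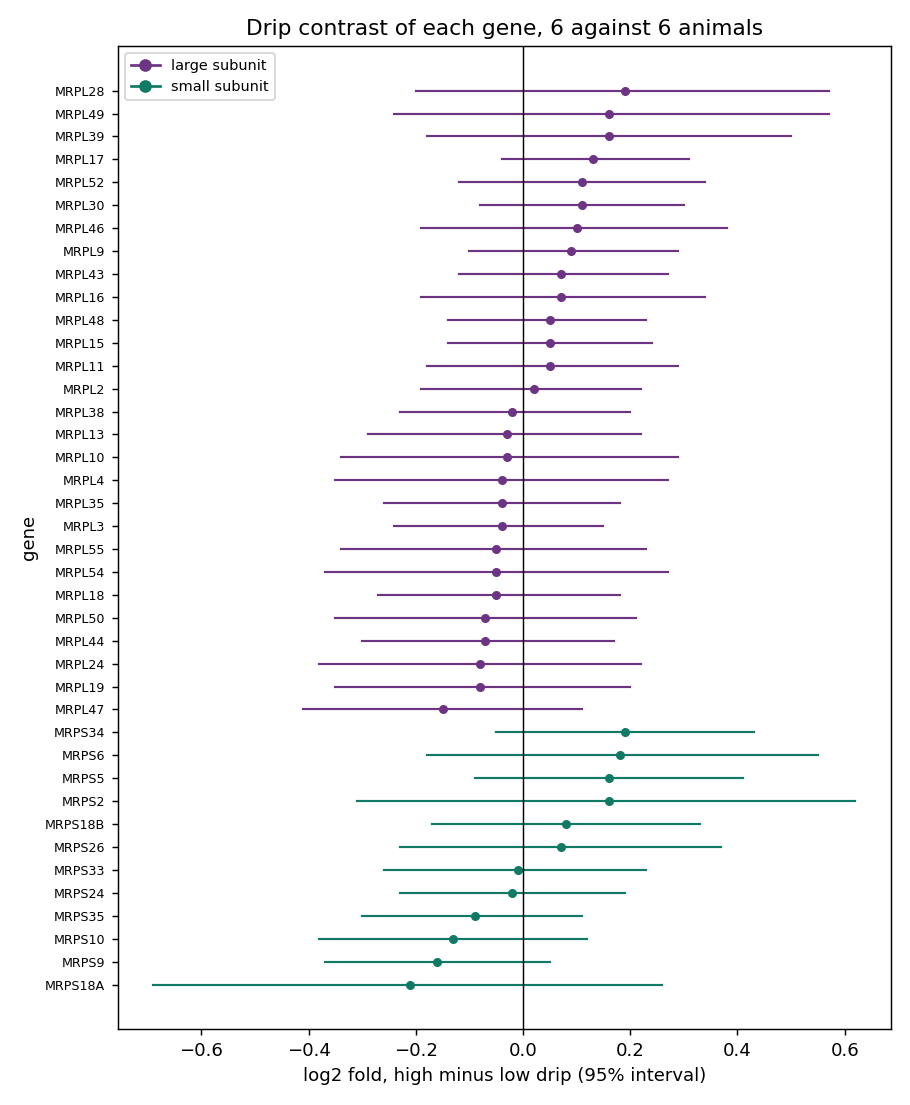
Log2 fold, high minus low drip, with its 95% interval for each of the 40 genes, purple for the large and green for the small subunit. All intervals cross 0 and the folds run from -0.21 to 0.19.

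The 3 genes with the smallest p came from both subunits. MRPS34 (ENSSSCG00000008016), a small subunit protein specific to mitochondria, had 24.8, 27.6 and 33.7 CPM at high drip, against 20.3, 24.5 and 29.7 CPM at low drip (lowest, median, highest of 6). The high drip values sat higher, with overlap over much of the range. The fold was 0.19 ± 0.11 (SE; 95% interval -0.05 to 0.43), and it was 0.07 in the 9 animals whose recorded table carried their own number and 0.12 without low drip replicate 1.

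MRPS9 (ENSSSCG00000028020), whose bacterial counterpart reaches with its tail to the peptidyl tRNA site, had 42.8, 53.3 and 57.9 CPM at high drip, against 52.1, 58.9 and 62.9 CPM at low drip. High drip replicates 4 and 6 fell below every low drip animal, and the remaining high drip values lay among the low drip ones. The fold was -0.16 ± 0.10 (95% interval -0.37 to 0.05). It was -0.03 within females and -0.29 within males, and -0.26 in the 9 animals with their own number. Without adjustment, MRPS9 had a p under 0.05 within males and in the 9 animals, as the 1 gene of 40 in each of these fits, where 3.68% and 2.28% of all features had such a p.

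MRPL17 (ENSSSCG00000024693) had 102, 114 and 130 CPM at high drip, against 97.4, 106 and 111 CPM at low drip. High drip replicates 2, 3 and 6 lay above every low drip animal, and the lowest high drip value lay among the low drip ones. The fold was 0.13 ± 0.08 (95% interval -0.04 to 0.31), 0.06 in the 9 animals with their own number and 0.00 with tables as recorded.

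Other genes with a small p had folds of similar size. MRPS5, which in bacteria lies at the entry of the messenger RNA channel, had 28.7, 31.1 and 40.2 CPM at high drip, against 23.4, 30.1 and 33.1 CPM at low drip, a fold of 0.16 ± 0.12. It was 0.03 within females and 0.28 within males, 0.09 without low drip replicate 5 and 0.10 without high drip replicate 5. MRPL30 had 41.1, 50.5 and 56.0 CPM at high drip, against 39.97, 45.8 and 50.01 CPM at low drip, a fold of 0.11 ± 0.09, and 0.07 without high drip replicate 3. MRPL47, related to a bacterial protein at the tunnel exit, had 11.7, 14.3 and 15.4 CPM at high drip, against 12.3, 15.9 and 18.2 CPM at low drip. Its fold was -0.15 ± 0.12 and changed sign to 0.05 with tables as recorded, and it was -0.08 without low drip replicate 2. The groups overlapped in each of these genes.

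The MRPS18 paralogs were set side by side, since they derive from the same bacterial protein. MRPS18A (ENSSSCG00000001692) had 3.99, 5.58 and 7.83 CPM at high drip, against 5.02, 6.02 and 10.3 CPM at low drip. The fold was -0.21 ± 0.22, with -0.50 within females and 0.07 within males, -0.08 without low drip replicate 3 and -0.09 without high drip replicate 3. MRPS18B had 28.8, 33.2 and 35.7 CPM at high drip, against 26.1, 31.2 and 40.7 CPM at low drip. Its fold was 0.08 ± 0.12, and -0.01 with tables as recorded and 0.02 without low drip replicate 2. The values of the groups overlapped for both paralogs. MRPS18C, the remaining paralog, was not analysed here.

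Markers of other cells gave 0 calls for drip. Adipocyte markers summed to 152 to 220 CPM in high drip and 130 to 289 CPM in low drip animals, and 4 of 4 tested had a negative fold, with a median of -0.60. Without adjustment 2 of these 4 had a p under 0.05, where 1.88% of all features had such a p with a negative fold. The summed liver list, with 20 of 25 genes measured, was 105 to 705 CPM in high drip and 64.98 to 241 CPM in low drip animals. With the presence of liver transcripts as a term, 0 of 40 mitochondrial ribosomal genes passed and the largest fold in size was 0.23.

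Genes that act with the mitochondrial ribosome also gave 0 calls. Of 3 measured subunits that carry other symbols, 3 had positive folds, with a median of 0.10. CHCHD1, a small subunit protein, had 44.5 ± 4.52 CPM at high drip against 40.6 ± 3.41 CPM at low drip (n = 6 each), a fold of 0.13 ± 0.10. Of 18 tested genes for assembly of the ribosome and modification of its RNA, 9 had positive and 9 negative folds. MRM1, a methyltransferase of the large ribosomal RNA, had 11.7 ± 1.16 against 10.1 ± 1.73 CPM, a fold of 0.22 ± 0.14. With tables as recorded the folds of CHCHD1 and MRM1 were 0.08 and 0.07. Neither fold exceeded the spread between animals by the edgeR test (adjusted p = 0.999).

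Of 12 translation factors, 6 had positive and 6 negative folds. MTIF2, the initiation factor that brings the first tRNA to the ribosome, had 21.2 ± 4.21 against 25.7 ± 4.72 CPM, a fold of -0.27 ± 0.15, and -0.09 with tables as recorded. The 14 mitochondrial aminoacyl-tRNA synthetases split 7 to 7. SARS2, which charges the serine tRNA, had 4.48 ± 1.13 against 3.31 ± 0.833 CPM, a fold of 0.44 ± 0.22, with 0.03 within females and 0.86 within males. Of 6 genes for transcription and replication of mitochondrial DNA, 3 had positive and 3 negative folds. MTERF1, a transcription termination factor, had 3.71 ± 1.07 against 4.84 ± 1.00 CPM, a fold of -0.39 ± 0.20, and -0.07 with tables as recorded. High and low drip values overlapped in each of these genes, and the adjusted p in edgeR was 0.999.

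Regulators of mitochondrial biogenesis held the only gene of these lists with an unadjusted p under 0.05 in edgeR. Over all features 3.54% had such a p, and 1.88% had it with a negative fold. MYC, a transcription factor with many targets besides mitochondrial genes, had 16.1 ± 4.91 CPM at high drip against 26.4 ± 12.8 CPM at low drip. Its fold was -0.68 ± 0.30 (95% interval -1.32 to -0.05, edgeR adjusted p = 0.999). It was -0.24 in the 9 animals with their own number, -0.25 with tables as recorded, and -1.04 within females against -0.33 within males. Proteases and prohibitins had 8 positive and 1 negative fold, with a median of 0.04 and 0.11 ± 0.13 for SPG7, a subunit of the protease that matures a ribosomal protein. The fold of SPG7 was -0.01 in the 9 animals with their own number.

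Larger assemblies that share a part with the set were placed beside it. Nuclear genes of oxidative phosphorylation, whose complexes take in the products of mitochondrial translation, had a positive fold in 36 of 37 cases, with a median of 0.11. Over all tested features 5270 of 10411 folds were positive. NDUFB7, a subunit of complex I, had 69.0 ± 3.65 against 60.7 ± 6.04 CPM, a fold of 0.19 ± 0.09, and 0.08 with tables as recorded. Cytosolic ribosomal proteins had 17 positive and 5 negative folds, with a median of 0.03 and 0.20 ± 0.16 for RPS21. Within each list the genes varied together over the animals (median pairwise correlation 0.436 and 0.604, described below), so their signs are not independent. None of these genes passed (edgeR adjusted p = 0.999). Without adjustment 0 of them had a p under 0.05. The difference between these lists and the mitochondrial ribosomal set was not tested.

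Males and females were compared in the same fit. Of the 40 genes, 0 passed the adjusted threshold, where 0% of 10411 features passed (679 features, or 6.52%, had an unadjusted p under 0.05). Folds, male minus female, were positive in 20 genes and negative in 20, with a median of 0.00. In all, 3 large subunit genes were higher in males at an unadjusted p under 0.05 and 0 genes were lower, against 3.5% and 3.03% of all features. DESeq2 called 6 features and voom 0, and 0 of these were mitochondrial ribosomal genes. The sexes overlapped in all 40 genes, where 0.317% of features had sexes that did not overlap.

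MRPL39 (ENSSSCG00000012021), a large subunit protein specific to mitochondria, had 23.6, 28.8 and 44.6 CPM in females and 29.6, 39.5 and 51.9 CPM in males (lowest, median, highest of 6). High drip replicate 2 stood above the other females and above 5 of the 6 males, so the sexes overlapped. The fold was 0.40 ± 0.16 (95% interval 0.06 to 0.75, edgeR adjusted p = 0.730). It was 0.24 with age as a term and 0.61 in the 9 animals with their own number.

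MRPL35 had 25.8, 32.1 and 36.8 CPM in females and 34.4, 38.1 and 41.2 CPM in males. High drip replicate 3 and low drip replicate 3 were the females that reached into the male range. The fold was 0.24 ± 0.10 (95% interval 0.02 to 0.46, edgeR adjusted p = 0.747). MRPL30 had 39.97, 43.6 and 51.2 CPM in females and 45.9, 49.9 and 56.0 CPM in males, a fold of 0.19 ± 0.09 (edgeR adjusted p = 0.759). MRPS35, a small subunit protein, had 25.2, 27.7 and 31.3 CPM in females and 30.0, 31.0 and 37.9 CPM in males, a fold of 0.19 ± 0.09 (edgeR adjusted p = 0.759).

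Mean age was higher in females. Females were 179 ± 5.99 and males 175 ± 6.74 days old (n = 6 each). With age as a term, 0 of the 40 genes had an unadjusted p under 0.05 for sex, against 5.42% of all features. Without high drip replicate 6, the male with the highest MRPL39 value, the count was also 0, against 5.19%. Over all single animals left out it ranged from 0 to 4, and the share of all features from 4.83% to 8.96%. Markers of other cells gave 0 calls for sex. All tested genes had a positive fold among fibroblast (6), endothelial (5) and adipocyte (4) markers, and all had a negative fold among liver (16) and skeletal muscle (7) markers. The fibroblast markers summed to 3027 to 5598 CPM in males and 2915 to 4814 CPM in females, and 1 of the 6 had an unadjusted p under 0.05. Their part in the folds was not tested.

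**Figure D4:**
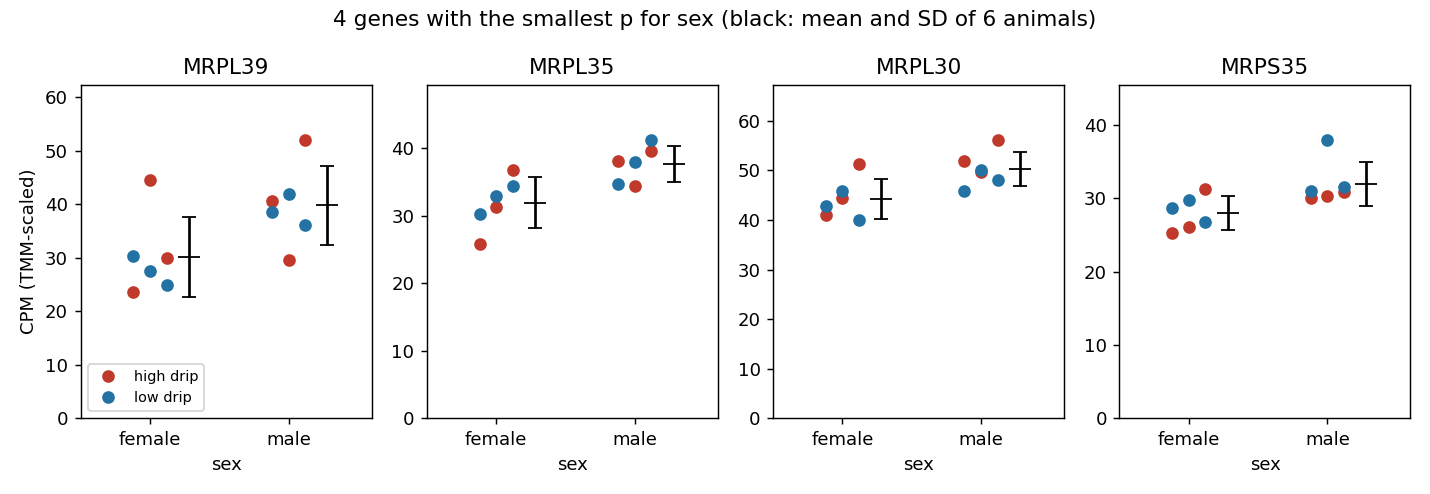
CPM of the 4 genes with the smallest p for sex in each female and male, coloured by drip group, with the mean and SD of 6 animals in black. MRPL39 has a female at 44.6 CPM within the male range of 29.6 to 51.9 CPM, and the sexes overlap in all 4 genes.

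The drip contrast was then compared between the sexes by an interaction term, which subtracts the drip difference of females from that of males. Of the 40 genes, 0 passed, where 0% of 10627 tested features passed (371, or 3.49%, had an unadjusted p under 0.05). DESeq2 called 7 features and voom 0, with 0 mitochondrial ribosomal genes among them. The median over the set was 0.00 with 20 positive and 20 negative values. Only 3 of the 40 intervals lay within 0.5 of 0 on the log2 scale, so the design left differences of that size unresolved for most genes.

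MRPS26 (ENSSSCG00000007165), the mitochondria-specific small subunit gene with the highest CPM, was the 1 gene with an unadjusted p under 0.05, with a negative value, where 1.67% of features had such a p with a positive and 1.83% with a negative value. In females it had 62.5, 71.2 and 55.9 CPM at high drip and 49.4, 46.0 and 53.9 CPM at low drip. In males it had 62.1, 52.1 and 55.9 CPM at high drip and 84.2, 51.6 and 60.6 CPM at low drip. All 3 high drip females thus lay above the low drip females, while the males overlapped and low drip replicate 4 was the highest of all animals.

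The interaction of MRPS26 was -0.55 ± 0.25 (95% interval -1.08 to -0.02, edgeR adjusted p = 1.00). Without low drip replicate 4 it was -0.33, and it was -0.12 with tables as recorded and -0.35 in the 9 animals with their own number. Low drip replicate 3 is the only low drip female among those 9, so the female drip difference there rests on that animal. Over the 21 alternatives the interaction of MRPS26 ran from -0.79 to -0.12. The 3 high drip females were also the females with liver transcripts, so drip and liver transcripts cannot be told apart within females. With liver transcripts as a term MRPS26 had an unadjusted p under 0.05 in edgeR, as had 5.23% of all features. The next genes were MRPL49 with 0.67 ± 0.35, MRPL54 with 0.44 ± 0.29 and MRPL50 with -0.36 ± 0.26. MRPL49 had 1.15 in the 9 animals with their own number, again with low drip replicate 3 as the only low drip female. MRPL54 had 0.16 with liver transcripts as a term.

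How far the genes varied together from animal to animal was described by the Pearson correlation (r) of log2 CPM over the 12 animals. Over the 780 pairs of the set the median r was 0.006, with the middle 50% of pairs between -0.219 and 0.266. Over all 54189255 pairs of tested features the median was -0.002. An r above 0.5 was seen in 8.85% of the pairs of the set and in 6.95% of all pairs, and an r under -0.5 in 5.64% and 6.54%. Pairs within the large subunit had a median of -0.017, pairs within the small subunit -0.002 and pairs across the subunits 0.026. These values are descriptions over 12 animals, and pairs that share a gene are not independent.

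The same measure gave other values for the assemblies next to the set. The 37 oxidative phosphorylation genes had a median r of 0.436, with 42.5% of pairs above 0.5. The 22 cytosolic ribosomal genes had a median r of 0.604, with 62.8% of pairs above 0.5. Mitochondrial translation factors had -0.052, aminoacyl-tRNA synthetases 0.017 and assembly genes 0.058, all close to the set.

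The lists differed in depth, whose part in these values was not tested. The median of mean counts was 313 for the set, 1845 for oxidative phosphorylation and 4270 for cytosolic ribosomal genes. The 8 oxidative phosphorylation genes with no more counts than the top member of the set had a median r of 0.199, and 0.034 after removal of sex and drip. After the same removal all 37 oxidative phosphorylation genes had 0.425, the cytosolic ribosomal genes 0.632 and the set 0.014. Among the 20 members with more counts the median r was 0.033. Scaling by total counts in place of TMM gave 0.232 for the set and 0.091 for all pairs. It gave 0.368 for oxidative phosphorylation and 0.632 for cytosolic ribosomal genes. The distance between the set and oxidative phosphorylation thus depended in large part on the scaling.

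**Figure D5:**
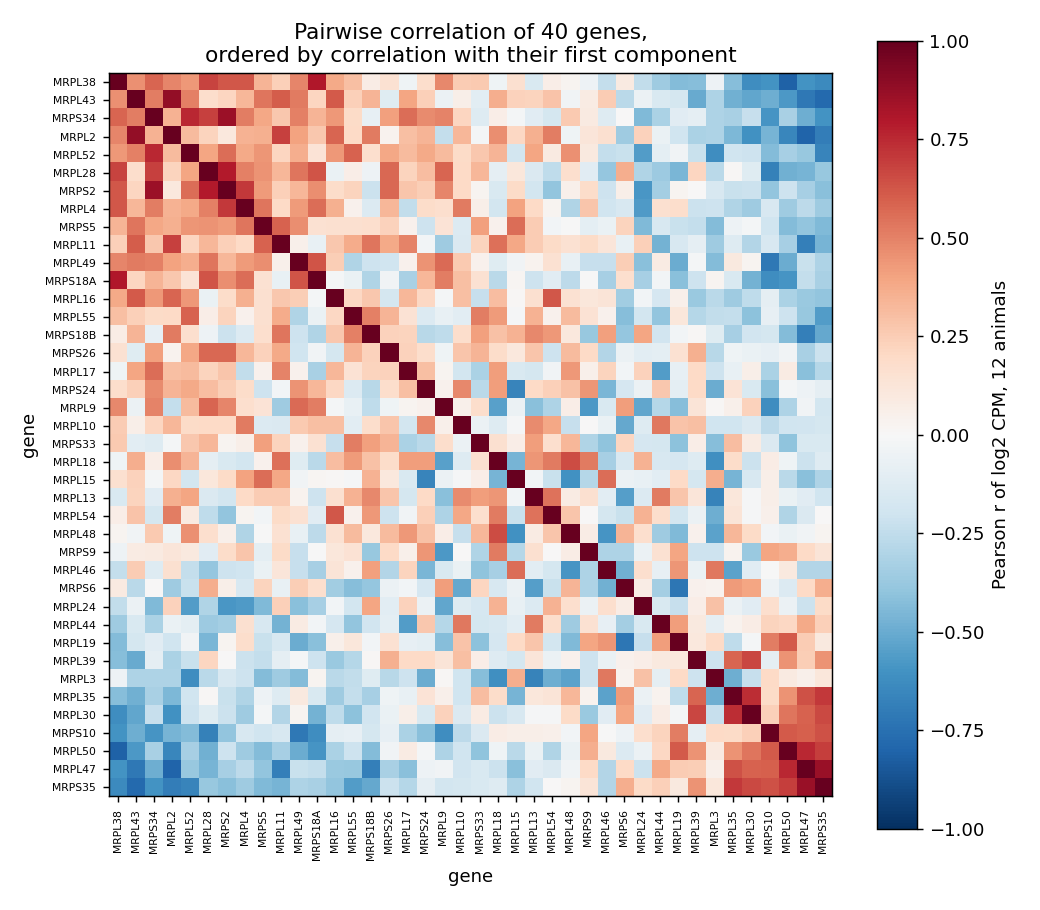
Pearson r of log2 CPM over 12 animals for each pair of the 40 genes (red positive, blue negative), ordered by each gene's correlation with the first principal component. Red lies at 2 corners and blue between them, around a median r of 0.006. The order comes from these same genes and by itself draws such blocks, so they are not evidence of groups.

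Single pairs stood far from the median. MRPL2, whose bacterial counterpart lies near the peptidyl transferase centre, and MRPL43, specific to mitochondria, had r = 0.875 and rho = 0.804, and r = 0.841 without the 2 farthest animals. MRPL47 and MRPS35 had r = 0.860 and rho = 0.811, and r = 0.781 without the 2 farthest. MRPS2 and MRPS34, both of the small subunit, had r = 0.853 and rho = 0.678, and r = 0.662 without the 2 farthest. All 3 pairs stayed above 0.7 in the libraries with and in those without liver transcripts.

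Other pairs ran in opposite directions. MRPL38 and MRPL50, both specific to mitochondria, had r = -0.809 and rho = -0.790, and r = -0.597 without the 2 farthest animals. MRPL2 and MRPL47 had r = -0.799 and rho = -0.832, and r = -0.774 without the 2 farthest. These 5 pairs are the extremes of 780 and are given as descriptions, with no test.

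The genes of these pairs all had r above 0.5 in size with the first principal component of the set. This pattern held 25.4% of the variance of the set. The component rose with MRPS35 (r = 0.870), MRPL47 (0.826), MRPL50 (0.776), MRPS10 (0.698) and MRPL30 (0.556), the 5 genes with r above 0.5. It ran against 13 genes with r under -0.5, led by MRPL38 (-0.821), MRPL43 (-0.778), MRPS34 (-0.759), MRPL2 (-0.756) and MRPL52 (-0.708). Both sides mixed the subunits, with 3 large and 2 small subunit genes on the first and 9 and 4 on the other. The animals at the ends were low drip replicate 3 (-6.01) and low drip replicate 5 (6.29), both of the same drip group. The component was computed from the same genes that are correlated with it here, so large r are partly built in. No share of all tested features past 0.5 was set beside the counts of 5 and 13 genes. These counts therefore do not show that the set varied together more than other genes.

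The pattern was shared with the rest of the transcriptome. The first component of all tested features, which held 19.2% of their variance, had r = 0.943 and rho = 0.923 with that of the set, and r = 0.856 without the 2 animals at the ends. The component of the set had r = 0.600 with the share of alignments that fell in no annotated gene, -0.481 with age and 0.108 with total counts. The part of these in the pattern was not tested.

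No member followed the whole set closely. MRPL11, whose bacterial counterpart forms the base of the stalk where GTP-binding factors act, had the highest correlation with the sum of the other 39 genes, r = 0.668 and rho = 0.517. Without the 2 animals farthest from the median of MRPL11 r was 0.235. Leaving out extremes narrows the range and can by itself lower r, so this does not show that the relation rests on those animals. MRPL3 had the lowest, r = -0.604 and rho = -0.608, and r = -0.533 without the 2 farthest.

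Large and small subunit sums had r = 0.414 and rho = 0.538 over the 12 animals, and r = 0.158 without the 2 farthest. With scaling by total counts r was 0.741, so the relation depends on the scaling. The sum of the set and the sum of the oxidative phosphorylation genes had r = 0.550 and rho = 0.497. Without the 2 farthest animals, high drip replicate 2 and low drip replicate 2, r was 0.293. With scaling by total counts r was 0.436, and 0.605 without the 2 farthest there, high drip replicate 6 and low drip replicate 4. The change in r without the farthest animals thus depended on the scaling.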

How the data were processed

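Total RNA was extracted with Trizol from frozen muscle, and libraries were prepared with the TruSeq RNA v2 kit, per the labels' protocols. Per the submitters' processing notes the authors used TopHat2 2.0.3, Bowtie 0.12.7.0 and HTSeq with build Sscrofa10.2. The files hold unnormalized counts of reads per gene, as deposited by the authors. The strand setting and the treatment of reads shared with pseudogenes or overlapping genes are not given in the sources used here, so such counts are uncertain. Tally lines that name no gene (39.93% to 44.41% of alignments) were left out.

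Symbols were matched exactly by Ensembl identifier. Counts were tested with edgeR 4.0.16 (R 4.3.3; TMM, filterByExpr with a minimum count of 10, quasi-likelihood test, two-sided, Benjamini-Hochberg over all tested features, threshold 0.05), checked on simulated data. DESeq2 1.42.0 and limma 3.58.1 (voom) were alternatives. Correlations used log2 CPM with a prior count of 2. A list counts a gene as measured where it has a row and a symbol.

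The genes and lists were chosen with earlier results of these data known. Genes were named by rule: the smallest p for drip (6), sex (4) and the interaction (4), the highest 4 and lowest 2 CPM per subunit, the MRPS18 paralogs, the extreme pairs, the members closest to and farthest from the sum of the rest, and the smallest p of each list. The rule's level per coding kilobase was replaced by CPM, since no coding length was used.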

Additional observations from a re-analysis of the deposited data

Results flagged for a closer look

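In each group of 6 animals the gap of the highest or lowest value to its neighbour was compared with the whole range of the group. In 3 of 88 such groups the gap exceeded the 95% critical value of Dixon's test, and chance gives about 1 in 20. MRPL55 was at 5.37 CPM in low drip replicate 5, where the other 5 low drip animals had 7.67 to 8.47 CPM. MRPS2 was at 17.2 CPM in high drip replicate 2, where the other high drip animals had 8.68 to 11.9 CPM. MRPS33 was at 39.1 CPM in high drip replicate 4, where the others had 27.1 to 31.2 CPM. The 3 animals all had liver transcripts, whose part in these values was not tested.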

How the results depend on the processing

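For drip, 0 features were called under each of the alternatives run (DESeq2, voom, size factors, total counts, no filter, other covariates, table assignments, single sexes and each animal left out). With tables as recorded, which matched poorly for some females, the drip folds of MRPL17, MRPL47 and MRPS18B were 0.00, 0.05 and -0.01. That of MRPS18A was 0.07 within males, and that of SPG7 -0.01 in the 9 animals with their own number. For sex DESeq2 called 6 features and a fit with no filter 1. For the interaction DESeq2 called 7, and a fit with liver transcripts as a term 1. Members were called in 0 of these fits. The median r was 0.232 with scaling by total counts (for sex this scaling, added after the data were seen, moved the median fold of the set and of all features to 0.06). It was 0.033 for the 20 members with more counts and 0.048 in the 6 libraries without liver transcripts, and -0.002 to 0.026 without each animal in turn. The causes were not tested. The summed level was 1474.3 to 1489.4 CPM without each animal, and the coefficient of variation under total counts was added after the data were seen. No paired analysis was possible because replicate numbers were given in accession order and pair no animals. Levels per coding kilobase were not run. Genes with few counts, such as MRPL49, have the widest counting error.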
